A study of Danio rerio with 18 samples.

Results

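Regions of chromatin with a called peak in hepatocytes (HEPs) and none in the other liver cell types sorted from zebrafish were described. The peaks of 6 ATAC-seq lists were merged into 92012 regions wherever they overlapped by at least 1 bp. A region was called HEP-only when it held a peak from HEPs of thioacetamide (TAA)-treated fish, from HEPs of control fish or from both, and no peak from hepatic stellate cells (HSCs) or endothelial cells (ECs). This gave 1426 regions, 1.55% of all regions (95% Wilson interval 1.47 to 1.63) and 2.86% (2.71 to 3.01) of the 49909 regions with a HEP peak. The members were thus chosen by presence and absence in the 6 lists, and every count of lists below describes that choice. Intervals cover counting error only.

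ATAC-seq uses a transposase that cuts DNA free of nucleosomes, so that read ends accumulate at promoters, enhancers and other open sites. Most promoters of widely used genes are open in all cells of an organ, whereas enhancers tend to be open in the cells that use them. HEPs are the main metabolic cells of the liver, where they make plasma proteins, bile and lipoproteins and convert drugs and toxins such as TAA. HSCs store vitamin A and make matrix after injury, and ECs line the blood vessels.

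All fish were adult females of AB background and each cell type came from its own reporter line. HEPs were sorted from Tg(fabp10a:dsRed), in which a liver fatty acid binding protein promoter drives a red protein, HSCs from Tg(hand2:EGFP) and ECs from Tg(kdrl:ras-mCherry), so cell type and line cannot be told apart. The treated fish received TAA at 500 mg/kg into the abdomen and the control fish liquid without TAA, both as 6 injections in 2 weeks. The study names the control liquid as sterile water in its methods and elsewhere as saline. Each of the 18 libraries, 3 for each of the 6 pairs of cell type and treatment, was made from 60000 sorted cells. Only 1 combined peak list per pair was used here, so a region is present or absent in a group and no value per library, spread between replicates or test across replicates could be given. The lists held 44649 peaks for TAA HEPs, 41563 for control HEPs, 61245 for TAA HSCs, 55293 for control HSCs, 54209 for TAA ECs and 51257 for control ECs, with read depth unknown. The HEP lists were the shortest of the 6. HSC-only regions made up 14.7% (10261) of the 69818 regions with an HSC peak, and EC-only regions 24.9% (19557) of the 78406 with an EC peak. The HEP label could not be checked against marker genes such as fabp10a, since no gene positions on the build of the files (GRCz11) were used for them.

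The HEP-only regions were nearly all found under 1 treatment alone. Of the 1426, 691 (48.5%, 45.9 to 51.1) were present only in TAA HEPs, 655 (45.9%, 43.4 to 48.5) only in control HEPs and 80 (5.61%, 4.53 to 6.93) in both. Over all regions with a HEP peak, the same split was 17.6% TAA only, 11.5% control only and 70.9% both. Among the 48483 HEP regions shared with HSCs or ECs, 72.8% (72.4 to 73.2) stood in both HEP lists. The rule used these lists, so the contrast is a description of the members and was not tested. A shared region can also join a TAA and a control HEP peak through an HSC or EC peak, which a HEP-only region cannot.

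Put per list, 80 of the 771 HEP-only regions in the TAA list, or 10.4%, were also in the control list, against 81.3% of the shared regions in the TAA list. Of the 735 in the control list, 10.9% were also in the TAA list, against 87.4% of the shared regions. HEP-only peaks made up 1.73% of the TAA list (1.61 to 1.85) and 1.77% of the control list (1.65 to 1.90). The rule used both lists and the 80 regions count in both shares, so whether the treatments differed was not tested. Both lists of a cell type held 13.9% of the HSC-only regions and 1.62% of the EC-only regions, and the HEP-only value lay between them. Of the HSC-only regions 61.8% were TAA only, and of the EC-only regions 81.2% were control only. The share in both lists over all HSC or all EC regions is not given here, so these values cannot be read as low for their cell type.

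The share in both HEP lists rose step by step with the number of HSC and EC lists that held the region. It was 5.61% with none, 11.5% (10.2 to 12.9) with 1, 34.5% with 2, 71.0% with 3 and 89.6% with all 4. The HEP peaks themselves, measured one by one before merging, had median widths of 114, 119, 135, 168 and 187 bp in the TAA list along the same steps, and of 110, 120, 137, 174 and 189 bp in the control list. Median peak scores, explained below, rose as well: 132, 138, 156, 274 and 514 in TAA HEPs, and 109, 127, 147, 267 and 489 in control HEPs. HEP-only regions were thus the lower end of a gradient that the scores also followed, and the steps were not matched on score. Regions held by HSC or EC lists can join HEP peaks that do not overlap each other, and how far this raised the steps was not tested. Of the 2189 HEP regions that a single other list kept out of the HEP-only set, 666 were held by TAA HSCs and 407 by control HSCs, 433 by TAA ECs and 683 by control ECs.

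**Figure D1:**
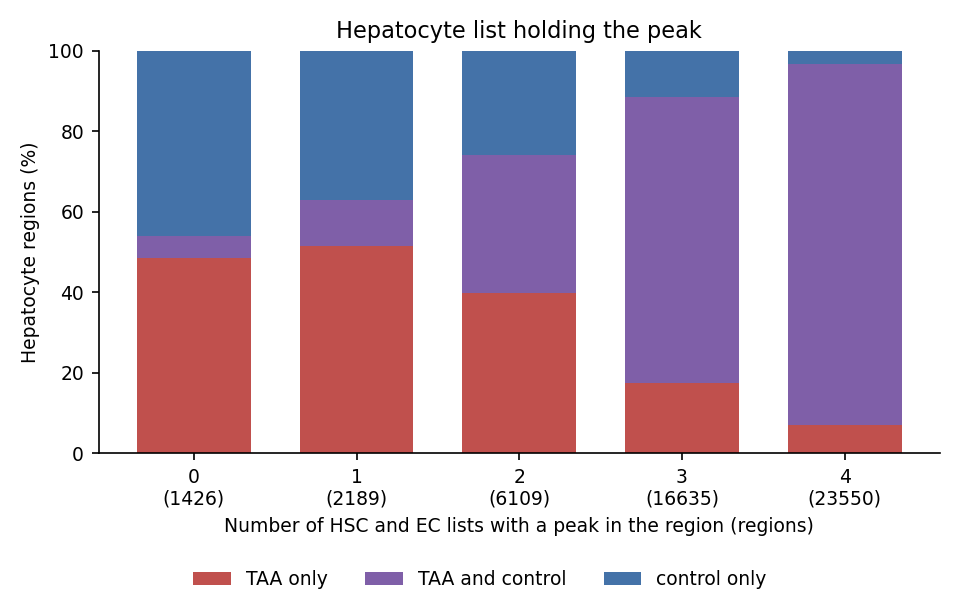
Share (%) of hepatocyte regions whose peak came from TAA HEPs alone, from both treatments or from control HEPs alone, by the number of HSC and EC lists (0 to 4) with a peak in the region; the number of regions stands in parentheses. Regions in both treatments made up 5.61% of the HEP-only bar at 0 and 89.6% of the bar at 4.

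HEP-only peaks scored low in both treatments. The score, 10 times the negative log10 of the adjusted p-value of the combined replicates, says how clearly a peak stood above background and is not a level of accessibility. HEP-only regions had a median score of 132 (50 to 836) in TAA HEPs, where shared regions had 336, and of 109 (51 to 933) in control HEPs, where shared regions had 323. None of the 4467 peaks in the highest-scoring 10% of the TAA list was HEP-only, which allows up to 0.0672%, and none of the 4159 in the highest-scoring 10% of the control list (up to 0.0721%). In the lowest-scoring 10% the HEP-only share was 8.39% (7.61 to 9.24) in the TAA list and 11.8% (10.8 to 12.8) in the control list. That stretch alone held 48.5% of the HEP-only peaks of TAA HEPs and 65.0% of those of control HEPs. Whether these regions were open below the calling threshold in HSCs or ECs was not tested.

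**Figure D2:**
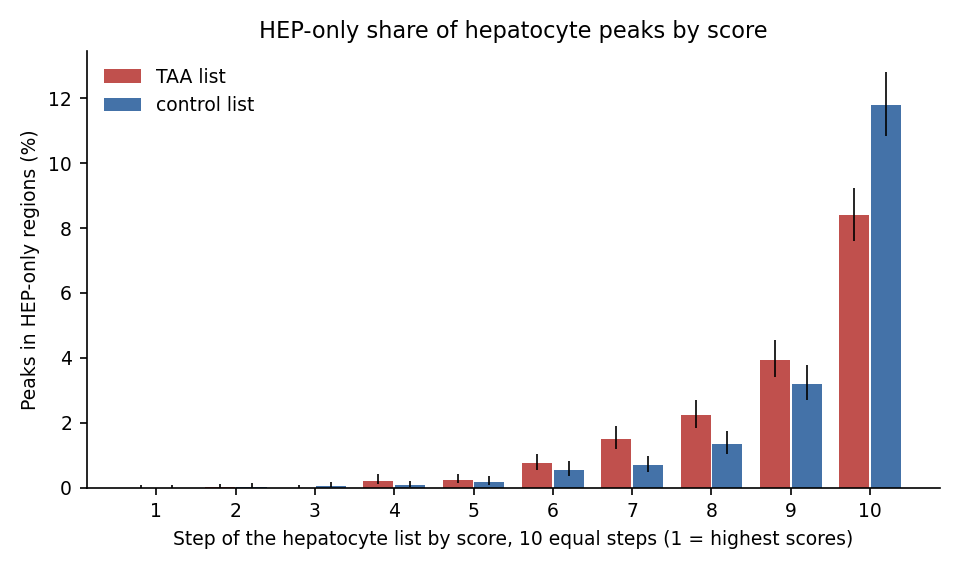
HEP-only peaks as a share (%) of the TAA and control hepatocyte lists, in 10 equal steps from the highest scores (1) to the lowest (10); bars are shares and lines 95% Wilson intervals. The share was 0 at step 1 in both lists, and 8.39% (TAA) and 11.8% (control) at step 10.

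Within each band of scores, a smaller share of HEP-only than of shared regions stood in the other HEP list, which is again a description with no test. Of HEP-only regions with a TAA score from 100 to under 150, 7.37% (21 of 285) were also in the control list, against 47.4% (46.1 to 48.8) of shared regions of that score. At a TAA score of 300 or more the shares were 34.5% (10 of 29, 19.9 to 52.7) for HEP-only and 97.6% for shared regions. That band has no upper limit, so scores within it were not alike. In the TAA list HEP-only scores reached 836 and shared scores 3240. The control list gave the same picture. There, 11.1% (33 of 296) of HEP-only and 62.5% of shared regions scoring from 100 to under 150 were also in the TAA list, and at 300 or more 36.8% (7 of 19) and 98.5%. Shared regions can join HEP peaks through an HSC or EC peak, which HEP-only regions cannot, so this direction is partly set by the rule.

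**Figure D3:**
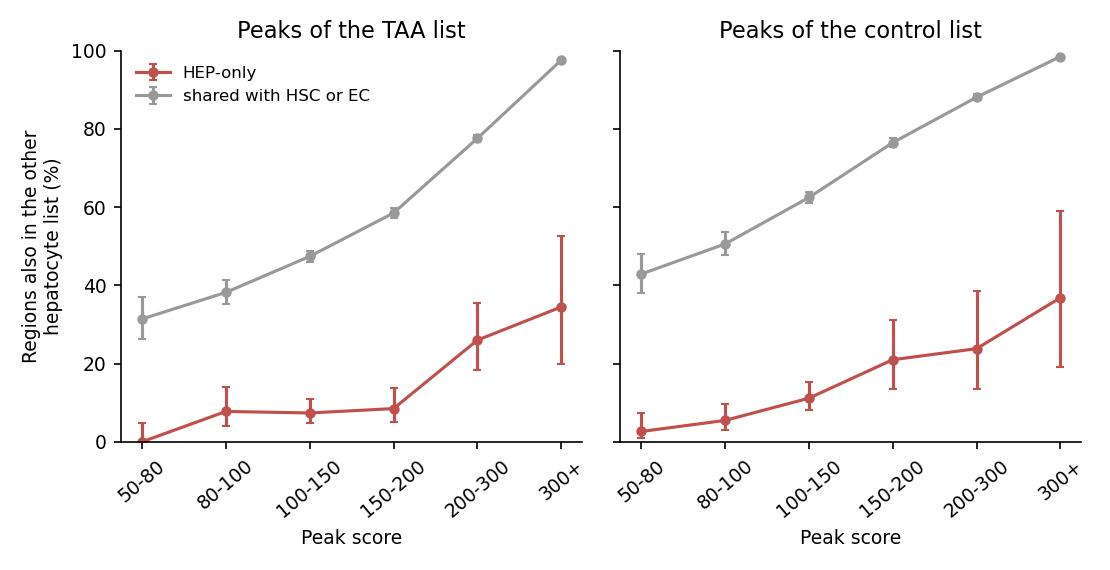
Share (%) of regions that were also in the other hepatocyte list, by peak score, for HEP-only regions and regions shared with HSCs or ECs, in the TAA list (left) and the control list (right); lines at the points are 95% Wilson intervals. HEP-only shares were 34.5% (TAA) and 36.8% (control) at scores of 300 or more, a band with no upper limit, where shared regions had 97.6% and 98.5%.

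The regions had a median width of 112 bp, and 471 of 1426 (33.0%) were exactly 100 bp wide, the smallest width that any of the lists held. The share at 100 bp was 31.3% for TAA only and 38.8% for control only regions. Among regions of other kinds it was 20.96% for HSC-only, 12.4% for EC-only and 5.51% for all regions. A region merged from several peaks is wider by construction, so single peaks are the closer comparison. In TAA HEPs, 29.4% of the HEP-only peaks and 5.23% of the shared peaks were 100 bp wide, and in control HEPs 36.6% and 5.41%. The median width of the regions depended on the peaks kept. It was 154 bp with HEP scores of at least 200 and 179 bp with the best 20000 peaks of each list. Together the 1426 regions covered 180 kb. No HEP-only region held more than 1 peak of a list.

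The 80 regions present under both treatments scored higher, with medians of 175 in TAA HEPs and 135.5 in control HEPs, than the regions found under 1 treatment, which had 128 (TAA only) and 105 (control only). Their single peaks had median widths of 138 bp in TAA HEPs and 133 bp in control HEPs, against 112 bp for TAA only and 108 bp for control only. The TAA and control peaks of a pair overlapped by a median of 109 bp (36 to 217), and their summits lay a median of 16 bp apart. Summits were within 20 bp of each other in 53.8% (43 of 80) of HEP-only pairs and in 69.6% of the pairs in shared regions. The peak ranked better in the TAA list in 48 of the 80 pairs (60%) and in 56.1% of the shared pairs.

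Among the 80, the best by the lower of both scores lay on chromosome 3 at 60405182 to 60405430 (GRCz11), with a score of 482 in TAA HEPs and 933 in control HEPs. It was 718 bp from a region open in all 6 lists. The next, on chromosome 16 at 47945525 to 47945696, scored 558 in TAA HEPs and 314 in control HEPs and stood apart: the nearest HSC peak was 40017 bp away and the nearest EC peak 99952 bp. A control only HEP region lay 170 bp from it. On chromosome 5, the region at 18761339 to 18761562 scored 295 in TAA HEPs and 432 in control HEPs, and its nearest HSC or EC peak was 12344 bp away. The region with the highest TAA score of all 1426 was on chromosome 3 at 10351500 to 10351728, with 836 in TAA HEPs and 288 in control HEPs. The other 6 of the 10 best had a lower score between 197 and 236. Even the 836 ranked 8227th among the peaks of TAA HEPs, and the 933 ranked 6917th among those of control HEPs.

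The highest scores among TAA only regions were 485 on chromosome 4 at 43226062 to 43226257 and 480 on chromosome 5 at 7857096 to 7857272. The first had a single other region within 50 kb. The second lay 267 bp from another TAA only region. It was followed by a region on chromosome 23 at 41952994 to 41953154, with a score of 438. Among control only regions the highest were 591 on chromosome 15 at 43196318 to 43196589, 424 on chromosome 24 at 41454558 to 41454737 and 421 on chromosome 3 at 31298887 to 31299061. The remaining 7 of the 10 highest scored 339 to 429 among TAA only regions and 306 to 370 among control only regions. Of the 30 regions with the 10 highest scores in each class, 15 lay more than 10 kb from any HSC or EC peak. The same share over all HEP-only regions was not given, so the 15 cannot be read as high or low. Another HEP-only region was the nearest neighbour for 6 of the 30 and for 57 of all 1426 (3.997%). These 30 were picked by score, and whether they differed from the others was not tested.

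The members at the edge of the rule were as follows. The lowest scores belonged to a TAA only region on chromosome 6 at 42111952 to 42112051, with 50, and a control only region on chromosome 2 at 57429084 to 57429240, with 51. One member, on chromosome 25 at 8474778 to 8474928 with a score of 156, touched an HSC-only region without sharing a base. Just outside the rule, a control HEP peak on chromosome 7 shared 1 bp with a TAA HSC peak in a region at 34361740 to 34361992, and another on the same chromosome shared 2 bp at 15543721 to 15543937. Few regions hung on such contacts: 46 members lay within 100 bp of another region, and 9 HEP regions shared less than 20 bp with the other lists. At wider limits, 208 members lay within 500 bp of another region, and 56 HEP regions shared less than 50 bp. Joining peaks within 500 bp left 1222 HEP-only regions.

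Position along the chromosomes was not used by the rule, and the HEP-only regions were unevenly placed. They occurred on all 25 chromosomes, with a share of the HEP regions from 2.28% on chromosome 5 (64 of 2809, 1.79 to 2.90) to 4.07% on chromosome 4 (74 of 1816, 3.26 to 5.09). Chromosomes 3 (97 regions, 3.62%) and 2 (85, 3.58%) came next, and the interval of each overlapped that of chromosome 4. TAA only regions outnumbered control only regions on 14 chromosomes, the reverse held on 9, and the numbers were equal on 2. Chromosome 25 was the only one with no region in both treatments.

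On chromosome 4 the share was high from about 30 Mb onwards, a boundary that was not planned and follows the shares seen along the chromosome. In zebrafish the long arm of this chromosome is rich in repeats and heterochromatin and holds large families of immune receptor and zinc finger genes. In what is called distal chromosome 4 here, past the midpoint of the stretch covered by peaks (39.0 Mb), 48 of 419 HEP regions were HEP-only, or 11.5% (8.75 to 14.9). In the proximal part it was 1.86% (26 of 1397, 1.27 to 2.71), made up of 1.56% (21 of 1348) before 30 Mb and 10.2% (5 of 49, 4.44 to 21.8) from there to the midpoint, and over the other 24 chromosomes 2.81% (2.67 to 2.96). Seen the other way, the distal part held 3.37% of the HEP-only regions, against 1.19% of HSC-only, 0.736% of EC-only, 0.549% of regions in all 6 lists and 0.829% of all regions. The 3.37% became 1.82% with the best 20000 peaks of each list and 6.63% with HEP scores of at least 200. Both treatments were represented: it held 3.47% of the TAA only regions (24), 3.21% of the control only regions (21) and 3.75% of those in both (3). Of the 30 regions with the highest scores, 3 lay there. One was in both treatments, at 61585088 to 61585346, with 441 in TAA HEPs and 200 in control HEPs, and its nearest HSC or EC peak was 34596 bp away.

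HEP-only regions were 11.5% of the HEP regions on distal chromosome 4 and 2.78% elsewhere. HSC-only regions were 22.7% (19.3 to 26.4) of the HSC regions on distal chromosome 4 and 14.6% elsewhere. EC-only regions were 26.0% (22.6 to 29.9) of the EC regions there and 24.9% elsewhere. The shift was thus of like size in percentage points for HEP-only and HSC-only regions, and whether it differed between cell types was not tested. The 48 HEP-only regions scored higher than those of the other 24 chromosomes, with medians of 181 against 131 in TAA HEPs and 133.5 against 108 in control HEPs. Of the 143 stretches of 10 Mb with at least 50 HEP regions, the 4 with the largest HEP-only share were all on chromosome 4, at 30 to 50 and 60 to 80 Mb, the first of them (30 to 40 Mb, 7 of 52) mostly on the proximal side of the midpoint. They ran from 8.87% (22 of 248) at 70 to 80 Mb to 17.5% (11 of 63, 10.0 to 28.6) at 60 to 70 Mb. The median over all stretches was 2.79%. The stretch of chromosome 4 at 50 to 60 Mb held under 50 HEP regions and was not among the 143. Of all HEP regions on distal chromosome 4, shared ones included, 46.8% were in both lists, against 71.1% on the other chromosomes. How many reads could be placed uniquely in this repeat-rich arm was not tested, nor was the part of the authors' removal of low-complexity peaks.

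**Figure D4:**
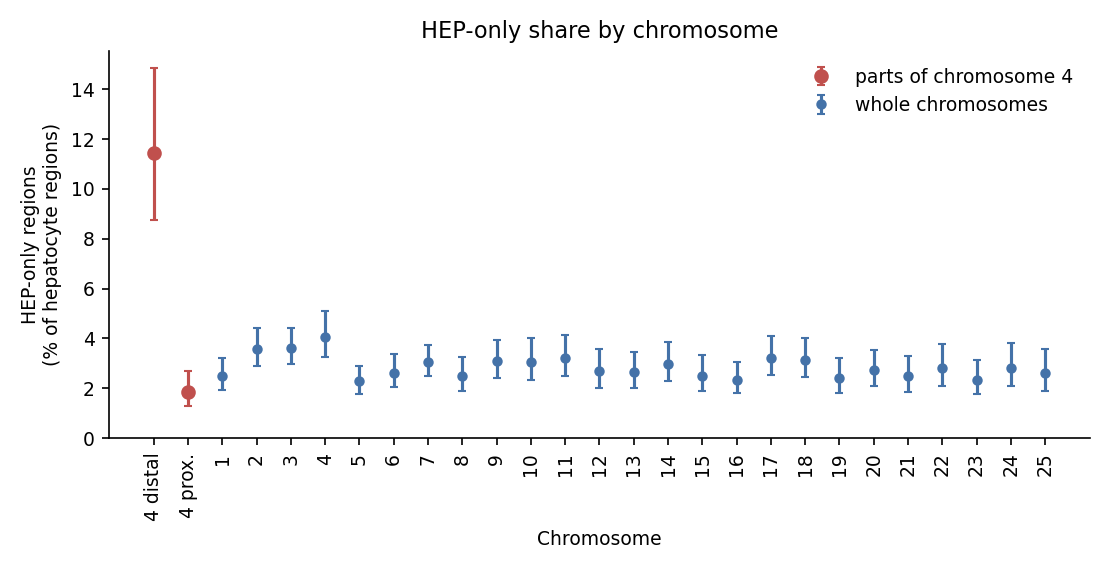
HEP-only regions as a share (%) of the hepatocyte regions on the distal and proximal part of chromosome 4 and on each of the 25 chromosomes; points are shares and lines 95% Wilson intervals. Distal chromosome 4 stood at 11.5%, and whole chromosomes lay between 2.28% and 4.07%.

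HEP-only regions lay in more sparsely opened surroundings than all regions together, and HSC-only regions came close to them on some measures. The measures counted regions of all 6 lists, whose HSC and EC peaks the rule also used. The nearest other region was a median of 5278 bp away (quartiles 1682 and 13043), against 3884 bp for HSC-only, 3426 bp for EC-only and 2952 bp for all regions. The median was 4335 bp for TAA only, 5829 bp for control only and 6705.5 bp for regions in both treatments. Within 1 kb of another region lay 19.4% of the HEP-only regions, 25.1% of HSC-only, 21.4% of EC-only and 27.2% of all regions. The nearest region open in all 6 lists was a median of 26834.5 bp away, against 19291 bp for HSC-only, 19111 bp for EC-only and 14694.5 bp over all regions. A HEP-only region had a median of 7 other regions within 50 kb, an HSC-only region 8, an EC-only region 10 and any region 10. More than 50 kb from any other region lay 2.52% of HEP-only, 2.72% of HSC-only, 1.49% of EC-only and 1.21% of all regions.

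The HEP-only share of HEP regions fell as the surroundings filled. It was 8.96% (246 of 2745, 7.95 to 10.1) with 0 to 2 other regions within 50 kb, 4.94% with 3 to 5, 2.56% with 6 to 10, 1.84% with 11 to 20 and 1.09% (23 of 2117, 0.725 to 1.63) with 21 or more. The neighbours were counted over all 6 lists. Where HSC and EC peaks are dense, a HEP peak is more likely to overlap one, so this direction is partly set by the rule. Distal chromosome 4 is sparse, with a median of 4 regions around its HEP regions. In broad bands of density, the HEP-only share of distal chromosome 4 was higher than elsewhere up to 10 neighbours. It was 15.7% (24 of 153, 10.8 to 22.3) there and 8.56% (7.55 to 9.70) elsewhere with 0 to 2 neighbours, 10% (13 of 130, 5.94 to 16.4) and 4.84% (4.34 to 5.38) with 3 to 5, and 12.8% (11 of 86, 7.29 to 21.5) and 2.51% (2.28 to 2.75) with 6 to 10. With 11 or more neighbours it was 0 of 50, which allows up to 6%, and 1.78% elsewhere. Elsewhere includes chromosome 4 from 30 Mb to its midpoint, and the bands were not matched on score. Whether density accounts for the share on distal chromosome 4 was not tested.

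**Figure D5:**
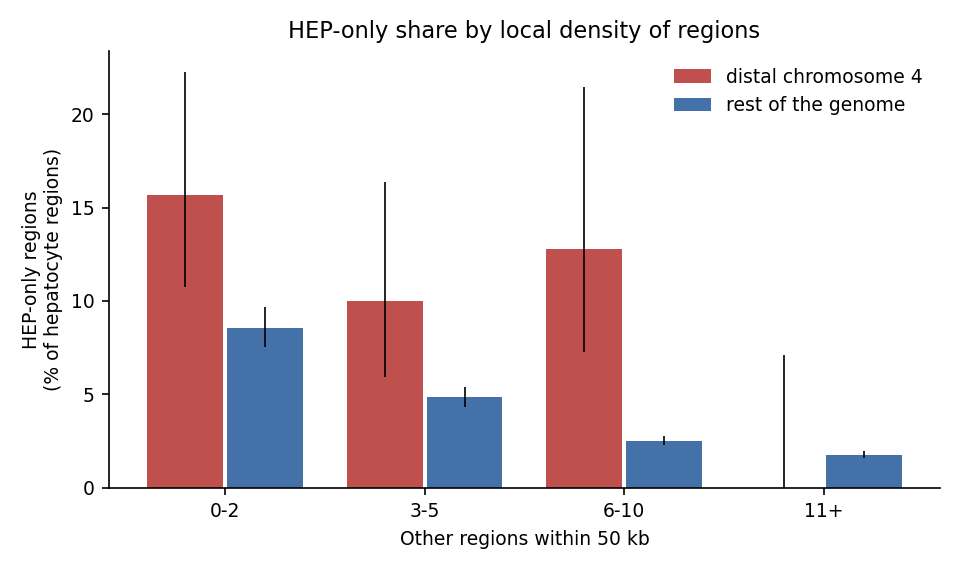
HEP-only regions as a share (%) of hepatocyte regions by the number of other regions within 50 kb, on distal chromosome 4 and in the rest of the genome; lines are 95% Wilson intervals. With 0 to 2 neighbours the share was 15.7% and 8.56%, and with 11 or more 0 of 50 regions and 1.78%.

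Some HEP-only regions lay next to each other. The nearest region was itself HEP-only for 57 of 1426, or 3.997%, while HEP-only regions made up 1.55% of all regions. That 1.55% is a genome-wide value, and on chromosome 4 from 30 Mb onwards 11.3% (53 of 468) of HEP regions were HEP-only. The neighbours were not split by place. A region open in all 6 lists was the nearest for 18.4%, against a 22.9% share of all regions. Most HEP-only regions were single, but 48 uninterrupted runs held 2 and 3 runs held 3. Of the runs of 2, 17 were TAA only in both places, 14 control only in both places and 11 mixed TAA only with control only. The tightest run of 3 spanned 3439 bp on chromosome 3 at 31298887 to 31302325. Its middle region scored 159 in TAA HEPs and 394 in control HEPs, and its outer regions were control only, with 421 and 122.

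By windows of 100 kb, 1212 held 1 HEP-only region, 98 held 2 and 6 held 3. On chromosome 22 at 9700001 to 9800000, 3 of 5 regions were HEP-only, all TAA only, and on chromosome 21 at 6500001 to 6600000 it was 3 of 6, again all TAA only. The windows on chromosome 5 at 200001 to 300000 and chromosome 14 at 44700001 to 44800000 also had 3 of 6, each 1 TAA only and 2 control only. The remaining windows with 3 were more crowded, with 16 regions on chromosome 11 at 31600001 to 31700000 and 26 on chromosome 15 at 21800001 to 21900000. For TAA only members the nearest HEP region was TAA only in 24.2% and control only in 12.3% of cases. For control only members it was TAA only in 17.7% and control only in 17.4%. Over all HEP regions, 17.6% were TAA only and 11.5% control only.

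Genes could be named for part of the regions alone, on chromosomes 1, 10 and 11, from a shortened gene table that lists genes with a promoter peak in HEPs or HSCs. The names were therefore biased to genes with open promoters and were chosen after the values were seen, and no share was drawn from them. Of the 163 HEP-only regions on these chromosomes, 70 lay inside or within 3 kb of the start of 64 listed genes, spelled here as the name table has them. No count over all HEP regions stands beside the 70, so it cannot be read as high or low. The classes of the 70 were as follows. They were 39 TAA only, 28 control only and 3 in both treatments. All HEP-only regions split in the same order into 25, 24 and 6 on chromosome 1. The split was 26, 24 and 1 on chromosome 10, and 23, 31 and 3 on chromosome 11. Whether regions near the listed genes differed in class was not tested. None of the 64 symbols matched the hepatocyte lists of plasma protein, metabolism, detoxification and transcription factor genes exactly as spelled there. Many of the 64 are in human spelling, which an exact match to zebrafish names cannot find, so nothing is concluded from the lack of a match. ABCB11, the bile salt export pump of hepatocytes, stands in them under other spellings, as 2 zebrafish copies.

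The following are examples with a known role in metabolism or plasma proteins, picked from the 64 by name and not tested as a group. Most of those picked were TAA only, whereas 28 of the 70 regions were control only, so their classes cannot be read as a trend. FABP2, an intracellular carrier of fatty acids, had a TAA only region within 1 kb of its start (chromosome 1 at 25848484 to 25848635, score 149 in TAA HEPs), and SLC27A4, which brings long-chain fatty acids into cells, had one too (chromosome 10 at 10739552 to 10739662, score 208), which lay 582 bp from a region open in all 6 lists. ACAD9, needed to assemble mitochondrial complex I, held a TAA only region with a score of 204, and VLDLR, a lipoprotein receptor, one with 144. MPC2, a subunit of the mitochondrial pyruvate carrier, held a control only region with a score of 189. ABCB11 held a control only region of 100 bp with a score of 89, 1456 bp from a shared HEP region. LRP1, also a lipoprotein receptor, held a control only region with a score of 92. Near mat2al, of the family that makes the methyl donor S-adenosylmethionine, a TAA only region scored 186, and near c3a.4, a copy of complement component 3, one scored 75.

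Other regions lay at genes with other roles, again picked by name, so their classes do not stand for those of all regions near the listed genes. ESAM, an adhesion molecule of endothelial cells, had a TAA only region with a score of 160 within 1 kb of its start, 296 bp from a region open in all 6 lists. ALCAM, a cell adhesion molecule, had 2 TAA only regions (scores 83 and 133). POSTN, a matrix protein made by fibroblast-like cells after injury, held a TAA only region with a score of 91 that lay 26 bp from an HSC-only region. Regions over a gene start itself were found at MXRA5 (score 161) and at eif5b, a translation initiation factor (176), both TAA only. The region at eif5b lay 103 bp from a region open in all 6 lists, and that at MXRA5 12101 bp from a region of HSCs and ECs. The 3 regions in both treatments lay inside lmo7b (104 in TAA HEPs and 84 in control HEPs), EVI5L (184 and 89) and DLG2 (154 and 109). UVRAG, which acts in autophagy, held 2 TAA only regions (77 and 185) and a control only region (132). The highest score at a named gene was 321, for a TAA only region inside tbl1xr1a, a subunit of nuclear corepressor complexes.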

How the data were processed

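ATAC-seq peak lists of 6 groups were used. The authors aligned reads to GRCz11 with Bowtie2 2.3.4.3 after trimming with cutadapt 1.18, kept short fragments, shifted read ends for the transposase, and called peaks with MACS2 2.1.0.2 on p-value tracks that combined the 3 libraries of a group by Fisher's method. Peaks over low-complexity sequence were discarded with bedtools 2.27.1. The deposited score of a peak is −log10 of its q-value multiplied by 10, and the summit offset is the deposited position of the highest point in a peak. The fold, p and q columns held only 0 and were not used. Fewer control fish than control libraries are stated, so libraries of a group may not be independent. Peaks were merged and counted with Python 3.11.15, pandas 2.3.3 and numpy 2.4.6, and merging was tested on simulated peaks. Coordinates are counted from 1. Shares carry 95% Wilson intervals. Where a count was 0, the limit given in the text is 3 counts over the total, while the figures draw the Wilson interval, which reaches higher. The regions named were the 10 with the highest scores in each class, the lower score ranking regions in both lists, the 100 kb windows with most members, and genes of the partial table, named after their values were seen. The members and lists were chosen with earlier results of these data known. A fixed score minimum, equal list lengths, another overlap, joining distance, the 25 numbered chromosomes alone and each other list left out were tried as alternatives.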

Additional observations from a re-analysis of the deposited data

How the results depend on the processing

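Of the 12 alternatives, 10 left the number of HEP-only regions within 1.5 times of 1426. That is a wide limit, which 2131 without the control EC list and 2110 without the TAA HSC list barely met. Leaving out the TAA EC list gave 1862 and the control HSC list 1836. The alternative that kept the 25 numbered chromosomes alone is counted in both the 12 and the 10. It removed no peak, since the lists held no others, so it could only return the main values. The HEP-only share of HEP regions, 2.86% with the whole lists, left its interval in the other 11 of the 12, with values from 0.519% to 7.15%. The number of HEP-only regions was 181 with HEP scores of at least 200 against the whole other lists, an alternative chosen after seeing the data. It was 3378 with every list at its best 41563 peaks, where the other lists lose weak peaks that had excluded a region. With the same settings, TAA only regions numbered 120 and 1405, control only regions 52 and 1644 and regions in both 9 and 329. TAA only regions numbered 1086 without the TAA HSC list and 1053 without the control EC list. At a score of at least 100 in all lists, 603 regions were TAA only and 430 control only, and with that minimum in HEPs alone 520 were TAA only and 379 control only. Regions in both numbered 211 with the best 20000 peaks of each list, 145 without the TAA HSC list, 145 without the control HSC list, 149 without the TAA EC list and 135 without the control EC list. The share in both was 12.8% with the best 20000 peaks, 9.74% with equal list lengths, 7.90% without the control HSC list and 8.00% without the TAA EC list. In all 12 it stayed under 72.8%, the share of shared regions with the whole lists. The share of shared regions was not computed again under the alternatives, so the contrast itself was not tried under them. Of the HEP regions on distal chromosome 4, the HEP-only share was from 4.65% (HEP scores of at least 200, against 0.519% genome-wide) to 23.3% (best 20000, against 7.15%). The median distance to the nearest region was from 3966 to 7037 bp in the 11 alternatives that gave it.

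No paired analysis was possible because each list pools the 3 libraries of its group, and no library was left out for the same reason. The planned promoter share, hepatocyte motifs and distances to hepatocyte genes, with their alternatives, were not run, as they need a GRCz11 sequence or annotation. Read depth, unknown here, limits all counts of absence: a region with no HSC or EC peak was not called there, which does not show that it was closed.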
